A study of Mus musculus with 8 samples.

Results

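The cytosolic ribosomal protein genes encode the proteins of the 40S (small) and 60S (large) ribosomal subunits, and 78 of them were followed here in livers with and without *Rbfox2*. They were chosen by name: the table of counts holds 46078 genes, and 81 were protein-coding genes whose symbol was Rps or Rpl followed by a number, or *Rpsa*, and 78 of these had at least 80 counts over the 8 livers. Of the 78, 32 belong to the small and 46 to the large subunit. The genes just inside and just outside the count limit were *Rpl24*, with 1163 counts, and *Rpl3l*, with 5 counts, and the paralogues *Rpl10l* and *Rpl39l* were at 0 counts in all 8 livers. A floor of 3 counts is worth 0.0534 to 0.08 CPM (a count relative to the size of its library), depending on the liver. All 78 passed the filter on low counts that preceded the test.

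RNA-seq of poly(A)-enriched RNA was available for 4 LWT and 4 LΔRbfox2 liver samples, called livers here, with 1 library for each. Both genotypes carried Rbfox2 loxP/loxP alleles. LΔRbfox2 mice also carried Albumin-cre, which is active in hepatocytes, so other liver cells kept the gene, and LWT mice were negative for it. The study's methods name male mice that were 8 weeks old when the diet began. All 8 livers came from fasted mice (16 h) on the control diet (CD), which the sample labels call Chow diet in 1 field, and these labels give 12 weeks of diet where the methods give a longer time.

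Each ribosome needs 1 copy of nearly every one of these proteins together with the ribosomal RNAs, and cells make them in matched amounts, free copies being degraded. Their mRNAs are abundant, short and long-lived, and are known as TOP mRNAs because they begin with a cytosine and a run of pyrimidines, which the mTORC1 pathway uses, through LARP1, to set how much of the mRNA is translated. The mRNA level and the translation of these genes therefore need not move together. Gene counts measure the mRNA level only.

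To show this run of pyrimidines, 30 bases around the annotated start are printed for the 5 genes with the largest and the 3 with the smallest difference between genotypes that had an entry in the RefSeq promoter table (GRCm38.p6), *Rpl17* not being shown. Each sequence reads 5′ to 3′ on the strand of the gene, and the 16th base is the annotated start. Capitals mark, to its end, a run of a C and at least 4 further C or T, beginning at the C nearest the start where that C lies within 5 bases of it. In *Rps24* and *Rpl35* the bases just before the marked C are pyrimidines too, and in *Rpl13a* the run goes on past the last base shown.
Rps24 (chr14:24490663-24490692, plus strand): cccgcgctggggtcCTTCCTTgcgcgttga
Rpl41 (chr10:128549154-128549183, minus strand): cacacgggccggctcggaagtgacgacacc
Rps12 (chr10:23787195-23787224, minus strand): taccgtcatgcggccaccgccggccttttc
Rpl35 (chr2:39005117-39005146, minus strand): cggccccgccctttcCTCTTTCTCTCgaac
Rpl13a (chr7:45128731-45128760, minus strand): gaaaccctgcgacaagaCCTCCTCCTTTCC
Rpl23 (chr11:97782425-97782454, minus strand): acgaggtccggtcacgtggctgagtgggcg
Rps4x (chrX:102189377-102189406, minus strand): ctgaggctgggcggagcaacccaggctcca
Rpl4 (chr9:64173372-64173401, plus strand): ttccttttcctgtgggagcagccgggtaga

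*Rps24*, *Rpl35* and *Rpl13a* held the run within 5 bases of the annotated start, and the other 5 did not, although *Rps12* and *Rpl4* held pyrimidine runs farther from it. Of the 78 genes, 59 were in the promoter table, with 70 start entries, since some have more than 1. The run was present in 42.9% of these entries and in 18.3% of all 32851 entries of the table. The 28 matched genes with the run had a median log2 fold change between genotypes of 0.9 and the 31 without it 0.85. The annotated start was not measured in these livers, so a gene without the run here may still give a TOP mRNA. Whether TOP mRNAs differ more or less between genotypes was not tested. The 19 genes without an entry had a median of 0.63.

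Other short motifs were counted on either strand in the 300 bases from 250 before to 50 after the start. CCGGAAG, the core of ETS family sites, was in 35.7% of the entries of these genes and in 8.86% of all entries. AAGATGGC, which contains the core of the YY1 site, was in 11.4% against 2.75%, and GGGCGG, the GC box, in 61.4% against 35.7%. CACGTG, the E-box that MYC and other factors bind, was in 11.4% against 7.15%, and TATAAA, the TATA box, in 8.57% against 13.6%. These are counts of letters in a window and do not show a bound site.

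Total counts per liver lay between 37482458 and 56177588. *Rbfox2* itself, which checks the labels, was at 17.1, 10.4, 11.4 and 18.3 CPM in LWT replicates 1 to 4 and at 4.61, 6.09, 2.24 and 3.19 CPM in LΔRbfox2 replicates 1 to 4, so that every LΔRbfox2 liver lay under every LWT liver (*P* = 0.0286 by an exact permutation test, two-sided, which is the lowest value 4 against 4 can give). LΔRbfox2 replicate 2 kept the most, at 42.6% of the LWT mean. The counts cover the whole gene and all liver cells. CPM values throughout are relative to library sizes after TMM scaling, which sets each library so that most genes match between livers. The scaling factors were between 1.02 and 1.14 in all livers except LΔRbfox2 replicates 3 and 4, where they were 0.724 and 0.776. The major urinary protein (*Mup*) genes took 43.6% and 37.5% of the counts in those 2 livers and between 21.4% and 37.1% in the other 6.

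The data were first examined for the summed level of the 78 mRNAs in each liver. It was 7735, 13589, 9658 and 7238 CPM in LWT replicates 1 to 4 and 17642, 8344, 17403 and 23996 CPM in LΔRbfox2 replicates 1 to 4. The means were 9555 ± 2885 CPM in LWT and 16846 ± 6438 CPM in LΔRbfox2 livers (SD, n = 4 each). LΔRbfox2 replicates 1, 3 and 4 lay above every LWT liver, and LΔRbfox2 replicate 2 lay under LWT replicates 2 and 3, so the genotypes overlapped through this 1 liver. In bulk liver, more transcript per cell and more cells of a type that holds more of it cannot be told apart.

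Both subunits showed nearly the same order of livers, LΔRbfox2 replicates 1 and 3 changing places. The 32 small-subunit genes summed to 3416, 6054, 4175 and 3120 CPM in LWT and to 8056, 3640, 7804 and 10929 CPM in LΔRbfox2 replicates 1 to 4. The 46 large-subunit genes summed to 4319, 7535, 5483 and 4118 CPM in LWT and to 9585, 4705, 9599 and 13067 CPM in LΔRbfox2 replicates 1 to 4. Small-subunit genes held 43.8% ± 0.705 of the counts of all 78 genes in LWT and 44.9% ± 0.949 in LΔRbfox2 livers (SD, n = 4 each), with overlapping ranges.

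**Figure D1:**
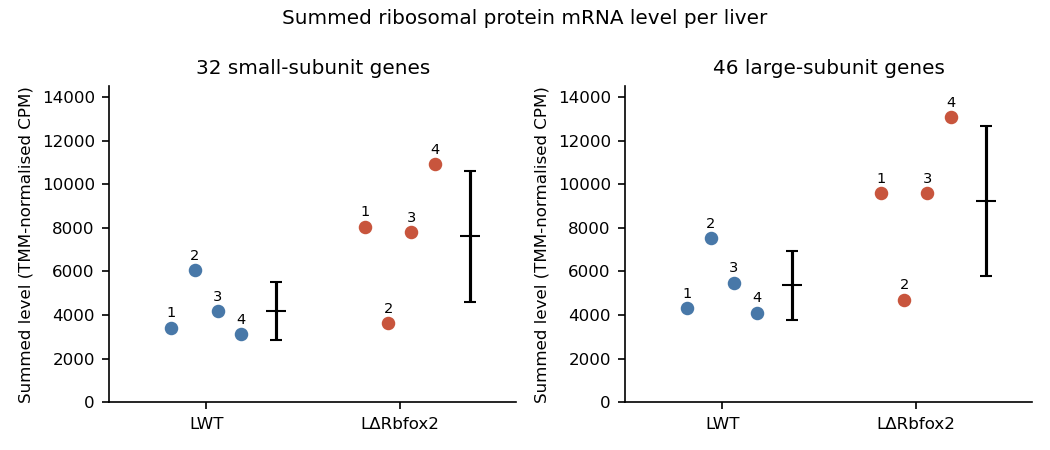
Summed level of the 32 small-subunit and 46 large-subunit genes in TMM-normalised CPM (vertical axis) for each liver, with the replicate number above each point and the mean and SD (n = 4) beside each genotype. In both panels LΔRbfox2 replicates 1, 3 and 4 lie above all LWT livers, and LΔRbfox2 replicate 2 lies within the LWT range.

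The comparison of the genotypes asks whether loss of *Rbfox2* in hepatocytes goes with another level of these mRNAs in the fasted liver. In the quasi-likelihood test of edgeR, adjusted after Benjamini–Hochberg over all 13856 genes tested, 0 of the 78 genes were differentially expressed at an adjusted *P* of at most 0.05, as were 0 of all genes (0%), and the adjusted *P* values of the 78 lay between 0.504 and 0.689. The deleted gene *Rbfox2* did not pass in this test either (log2 fold change −1.82, adjusted *P* = 0.504 from edgeR). Without adjustment, 56 of the 78 (71.8%) had a *P* under 0.05, all with the higher mean in LΔRbfox2 livers, where 9.79% of all genes tested were at this limit, 7.95% in the same direction and 1.83% in the other. Since the labels do not state that each liver is a separate animal, these *P* values measure the spread between the samples. At the same unadjusted limit DESeq2 counted 58 of the 78 genes (8.7% of all genes) and limma-voom 48 (5.48% of all genes), all higher in LΔRbfox2 livers. The smallest adjusted *P* of any of the 78 in DESeq2 was 0.247, and 10 genes of the whole table passed in it.

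All 78 genes had a log2 fold change above 0, as did 48.4% of all genes tested, except that *Rpl4* and *Rps4x* lay under 0 with total-count scaling or with corrections for gene length and GC content, and *Rps29* and *Rps4x* with a correction for gene length alone. The log2 fold changes ran from 0.16 for *Rpl4* to 1.47 for *Rps24*, with a median of 0.86 and standard errors from limma-voom of 0.17 to 0.46. The median was 0.91 for the small and 0.75 for the large subunit. In edgeR, 27 of 32 and 29 of 46 genes had an unadjusted *P* under 0.05, all higher, where 7.95% of all genes did so in this direction. The difference between the subunits was not tested. Over all genes tested the median was −0.015 and the quartiles were −0.26 and 0.29, and 74 of the 78 lay above the upper quartile. As a ratio of group means, the median over the 78 was 1.81.

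**Figure D2:**
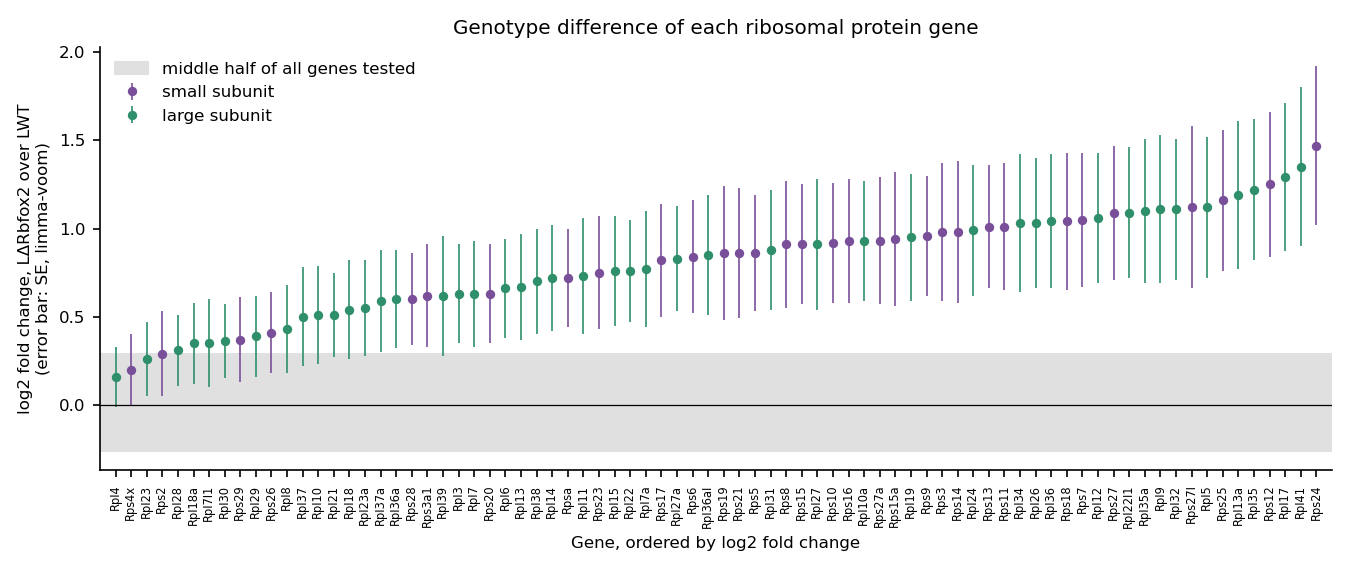
Log2 fold change of each of the 78 genes, LΔRbfox2 over LWT, from edgeR with TMM scaling (points, coloured by subunit), with the standard error from limma-voom as bars and genes ordered along the horizontal axis. The grey band spans the quartiles of all 13856 genes, −0.26 and 0.29. The 78 values run from 0.16 to 1.47, and *Rpl4* and *Rps4x*, the lowest, fall under 0 with total-count scaling.

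The size of this difference depended on single livers and on the scaling. Scaled by total counts alone, an alternative chosen after seeing the data, the median over the 78 genes was 0.56 and that of all genes −0.227, a distance of 0.79 where TMM gave 0.87, and 21 of the 78 had an unadjusted *P* under 0.05 with the higher mean in LΔRbfox2 livers, against 1.47% of all genes. Without LΔRbfox2 replicate 2, 73 of the 78 were at this limit (16.7% of all genes) and the median was 1.09. Without LΔRbfox2 replicate 4 there were 7 (1.97% of all genes) and the median was 0.62. Leaving out LWT replicate 2 gave 68 (13.5% of all genes) and a median of 1.09. LWT replicates 1 and 4 each gave 18 when left out (3% and 2.69% of all genes). LWT replicate 3 and LΔRbfox2 replicate 1 each gave 33 (3.68% and 5.68% of all genes), and LΔRbfox2 replicate 3 gave 31 (2.79% of all genes). The ribosomal protein genes counted were higher in LΔRbfox2 livers in each of these fits.

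No gene of the 78 had values that separated the genotypes fully, where 2.28% of all genes did, 1.05% with the higher values in LΔRbfox2 livers. LΔRbfox2 replicate 2 was the lowest liver of its genotype for all 78 genes and lay within the LWT range for 77 of them. The other 3 LΔRbfox2 livers lay above every LWT liver for 73 of the 78 (93.6%), where 12.9% of all genes tested had this order. LWT replicate 2 was the highest LWT liver for all 78, and the level of LΔRbfox2 replicate 2 was under it for all 78. The smallest *P* that any of the 78 reached in a two-sided exact permutation test of its 8 values was 0.0857.

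The livers therefore fell in nearly the same order from gene to gene. There were 17 distinct orders of the 8 livers among the 78 genes. The most common, held by 24 genes, ran from LWT replicate 4, the lowest, through LWT replicate 1, LΔRbfox2 replicate 2, LWT replicates 3 and 2 and LΔRbfox2 replicates 3 and 1 to LΔRbfox2 replicate 4. LΔRbfox2 replicate 4 was the highest liver for 74 genes, and the lowest was LWT replicate 4 for 51 and LWT replicate 1 for 26. In LΔRbfox2 replicate 2 the level of a gene was between 28.1% and 78.6% of the mean of the other 3 livers of its genotype, with a median of 41.5%, while in LWT replicate 2 it was between 119% and 213%, with a median of 169%. Over all genes, 54.1% of the variance of log2 CPM lay on its first principal component, and LΔRbfox2 replicate 2 lay at −0.302 on it, where the other LΔRbfox2 livers lay between 0.133 and 0.471 and the LWT livers between −0.5 and 0.231. The spread along this axis moved with these genes, and its part in the result was not tested.

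**Figure D3:**
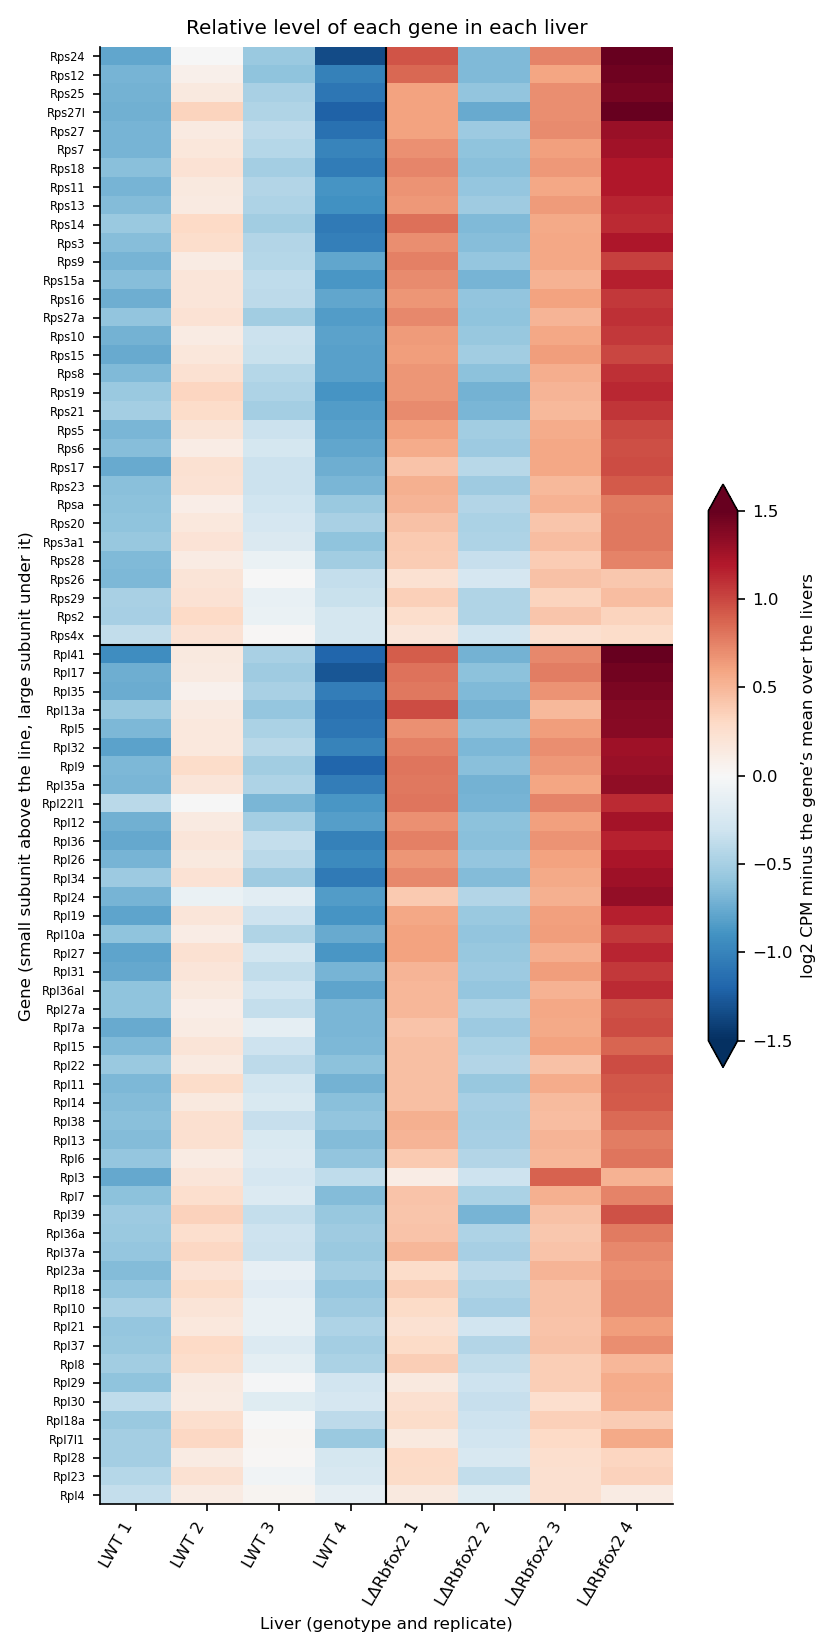
Level of each of the 78 genes (rows, small subunit above the line) in each liver (columns), as log2 CPM minus the mean of that gene over the 8 livers, from blue (lower) to red (higher). The columns of LΔRbfox2 replicates 1, 3 and 4 are red and those of LWT replicates 1 and 4 blue in nearly every row, LΔRbfox2 replicate 2 is blue throughout, and LWT replicate 2 is pale red in most rows.

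Markers of liver cell types were compared beside this result. Hepatocyte markers (*Alb*, *Apoa1*, *Ttr*, *Cyp2e1* and *Cps1*) summed to between 46711 and 68508 CPM in LWT and between 52906 and 71267 CPM in LΔRbfox2 livers, as the tissue label implies, and none of the 5 had an unadjusted *P* under 0.05. The 5 erythroid markers summed to 543, 729, 560 and 382 CPM in LWT replicates 1 to 4 and to 868, 627, 1349 and 1525 CPM in LΔRbfox2 replicates 1 to 4. The 4 globin genes among them had the higher mean in LΔRbfox2 livers at an unadjusted *P* under 0.05 (edgeR), as did 7.95% of all genes. *Hba-a1* and *Hba-a2* were higher in every LΔRbfox2 liver than in any LWT liver, as were 1.05% of all genes and 0 of the 78. Their levels were close to each other in every liver, so they are not separate observations. They were 130 and 126 CPM in LWT replicate 1, and 239 and 228 CPM in LΔRbfox2 replicate 4. *Alas2*, the enzyme of haem synthesis in red cell precursors, had a log2 fold change of 0.21 (SE 0.19 from limma-voom). These blood markers moved with the ribosomal protein mRNAs, with LΔRbfox2 replicate 2 again the lowest of its genotype, and their part in the result was not tested.

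The markers of other cells were at far lower levels. Kupffer cell markers summed to between 55.5 and 97.3 CPM in LWT and 31 and 65.9 CPM in LΔRbfox2 livers. Of the 6, 1, *Clec4f*, did not overlap between genotypes, with the lower values in LΔRbfox2 livers, where 2.28% of all genes did not overlap in either direction. The other 5 overlapped, and 2 of the 6, *Marco* and *Timd4*, had log2 fold changes above 0 (0.48 and 0.08). Sinusoidal endothelial markers summed to between 75.3 and 102 CPM and between 65.6 and 86.4 CPM, and stellate cell markers to between 61.9 and 120 CPM and between 78.2 and 121 CPM, in the same order. Cholangiocyte markers summed to between 14.6 and 25.8 CPM in LWT and between 16.4 and 60.9 CPM in LΔRbfox2 livers. Lymphocyte markers reached at most 2.63 CPM and neutrophil markers at most 0.836 CPM in any liver, with *Cd3e* and *Cd79a* at 0 counts in LΔRbfox2 replicate 4 and *Camp* and *Ngp* at 0 in several livers.

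The gene with the largest difference was *Rps24* (ENSMUSG00000025290, chromosome 14, 24487125 to 24496959 on GRCm38), which encodes a small-subunit protein needed to process the precursor of 18S ribosomal RNA and is one of the genes mutated in Diamond–Blackfan anaemia. It was at 123, 210, 143 and 83 CPM in LWT replicates 1 to 4 and at 406, 133, 354 and 660 CPM in LΔRbfox2 replicates 1 to 4. The means were 140 ± 53.3 and 388 ± 216 CPM (SD, n = 4 each), a log2 fold change of 1.47 (SE 0.45 from limma-voom, adjusted *P* = 0.504 from edgeR). LΔRbfox2 replicates 1, 3 and 4 lay above all LWT livers, and LΔRbfox2 replicate 2 lay between LWT replicates 1 and 3.

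*Rpl41* (chromosome 10, 128548114 to 128549305) encodes the shortest protein of the ribosome, a peptide rich in arginine and lysine. Its levels were 102, 214, 138 and 85.1 CPM in LWT and 363, 119, 319 and 570 CPM in LΔRbfox2 replicates 1 to 4. Its log2 fold change was 1.35 (SE 0.45 from limma-voom, adjusted *P* = 0.504 from edgeR). The order of the 8 livers was that of *Rps24*.

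*Rpl17* encodes a protein that lines the tunnel through which the nascent chain leaves the large subunit. Levels of 143, 259, 163 and 97.7 CPM in LWT and 416, 155, 403 and 646 CPM in LΔRbfox2 replicates 1 to 4 gave a log2 fold change of 1.29 (SE 0.42 from limma-voom, adjusted *P* = 0.504 from edgeR). *Rps12*, a protein of the head of the small subunit, was at 88.9, 153, 95 and 71.4 CPM in LWT and at 263, 91.2, 218 and 398 CPM in LΔRbfox2 replicates 1 to 4, a log2 fold change of 1.25. For both genes 3 LΔRbfox2 livers were high and replicate 2 was among the LWT livers. The exons of *Rps12* overlap those of small nucleolar RNA genes on the same strand over 13.7% of their bases, so its count is uncertain to that extent.

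*Rpl35*, which lies at the exit of the tunnel, was at 62.8, 110, 75.1 and 51.2 CPM in LWT and at 183, 66.6, 168 and 280 CPM in LΔRbfox2 replicates 1 to 4, a log2 fold change of 1.22 (SE 0.4 from limma-voom). *Rps25*, which some viral RNAs need for initiation at internal sites, had 107, 193, 125 and 82.3 CPM in LWT and 266, 116, 282 and 467 CPM in LΔRbfox2 replicates 1 to 4, and a log2 fold change of 1.16. *Rpl12*, at the base of the stalk that recruits translation factors, had 74, 134, 85.8 and 68.9 CPM in LWT and 197, 79.8, 188 and 290 CPM in LΔRbfox2 replicates 1 to 4, and a log2 fold change of 1.06. *Rps13*, a small-subunit protein next to the large subunit, completed the 10 genes of smallest *P* together with *Rps27* and *Rpl22l1*, which are described with their paralogues. Its log2 fold change was 1.01, and 3 LΔRbfox2 livers, at 173, 172 and 244 CPM, lay above LWT levels of 59.1 to 121 CPM, with LΔRbfox2 replicate 2 at 76.3 CPM. The unadjusted *P* values of these 10 genes ran from 0.0072 for *Rps24* to 0.0157 for *Rps27* (edgeR), and the adjusted *P* of each was 0.504.

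At the other end, *Rpl4* differed least. Its protein also reaches into the exit tunnel. *Rpl4* (chromosome 9, 64173375 to 64178666) was at 224, 311, 295 and 261 CPM in LWT and at 316, 253, 337 and 313 CPM in LΔRbfox2 replicates 1 to 4. The means of 273 ± 38.6 and 305 ± 36.1 CPM (SD, n = 4 each) differed by less than 1 SD, with a log2 fold change of 0.16 (SE 0.17 from limma-voom, adjusted *P* = 0.689 from edgeR). LΔRbfox2 replicate 2 was under LWT replicates 2, 3 and 4, and the ranges overlapped over much of their width. With total-count scaling the log2 fold change was −0.08.

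*Rps4x*, the X-linked form of a small-subunit protein, had 133, 200, 174 and 143 CPM in LWT and 195, 139, 203 and 207 CPM in LΔRbfox2 replicates 1 to 4. Its log2 fold change was 0.2 (SE 0.2 from limma-voom), or −0.06 with total-count scaling. *Rpl23*, which sits where the subunits meet and can bind MDM2, had 127, 200, 165 and 145 CPM in LWT and 209, 133, 202 and 218 CPM in LΔRbfox2 replicates 1 to 4, a log2 fold change of 0.26 (SE 0.21 from limma-voom). In neither gene did the groups separate, since LΔRbfox2 replicate 2 lay within the LWT range. In *Rps4x* LWT replicate 2 also exceeded LΔRbfox2 replicate 1, while in *Rpl23* it lay just under the other LΔRbfox2 livers.

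The genes of largest and smallest difference can also be described by their share in the counts of the 78, which no library scaling moves. These genes were chosen for their fold changes, so the shares restate the same difference on another scale. *Rps24* held 1.44% ± 0.202 of these counts in LWT and 2.17% ± 0.485 in LΔRbfox2 livers (SD, n = 4 each), and *Rpl41* 1.37% ± 0.168 and 1.92% ± 0.4. *Rpl4* held 2.96% ± 0.541 in LWT and 2.02% ± 0.73 in LΔRbfox2 livers, and *Rps4x* 1.74% ± 0.208 and 1.2% ± 0.34. For *Rpl4* the lowest share, 1.3%, was in LΔRbfox2 replicate 4, and the highest, 3.6%, in LWT replicate 4.

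**Figure D4:**
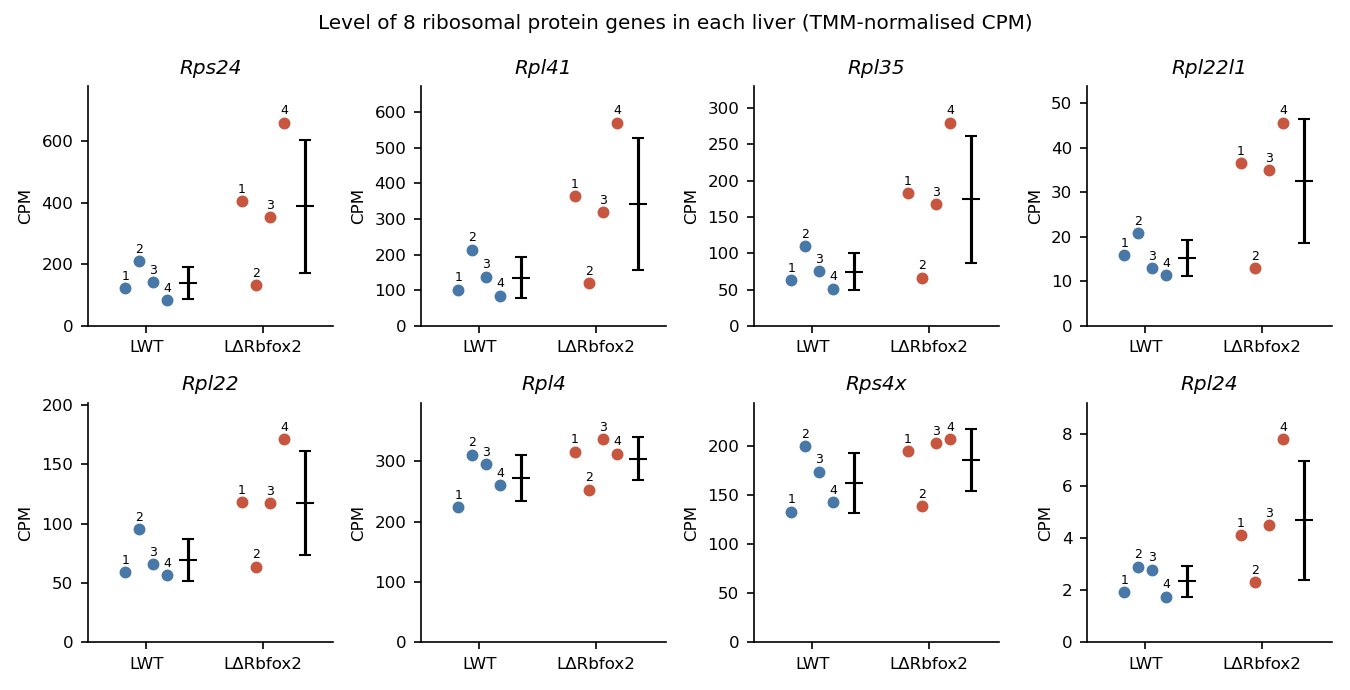
TMM-normalised CPM of 8 genes in each liver, with the replicate number above each point and the mean and SD (n = 4) beside each genotype; each panel has its own vertical axis from 0. In *Rps24*, *Rpl41*, *Rpl35*, *Rpl22l1*, *Rpl22* and *Rpl24* the LΔRbfox2 replicates 1, 3 and 4 lie above all LWT livers, while in *Rpl4* and *Rps4x* the genotypes lie close together.

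Levels of different genes were compared per kilobase of exonic length in the GENCODE M21 annotation. On this scale the 5 highest were *Rpl36* at 303, *Rps3a1* at 285, *Rps15* at 275 and *Rpl17* and *Rps2* at 215 CPM per kilobase, as means over the 8 livers. *Rpl36* was at 198 ± 74.7 in LWT and 407 ± 174 CPM per kilobase in LΔRbfox2 livers, *Rps3a1* at 224 ± 62.5 and 346 ± 112, and *Rps15*, which reaches the decoding site, at 191 ± 63.3 and 359 ± 134 (SD, n = 4 each). These neighbours in the order differ by less than the spread between livers, but the genes share much of that spread, and their order was not tested. The order depended on the length used. Per kilobase of the longest principal transcript the 5 highest were *Rps27* at 504, *Rps18* at 461, *Rpl41* at 410, *Rpl10* at 374 and *Rps2* at 359, so *Rps2*, a protein at the channel where the mRNA enters, was the 1 gene in both lists.

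In CPM, *Rps2* had 271, 471, 356 and 318 in LWT and 459, 279, 508 and 480 in LΔRbfox2 replicates 1 to 4. It was the gene with the most counts, 135695 in all, and its log2 fold change of 0.29 (SE 0.24 from limma-voom) was among the smallest. The ranges overlapped, since LΔRbfox2 replicate 2 lay under every LWT liver other than replicate 1. In addition, LWT replicate 2 exceeded LΔRbfox2 replicate 1. *Rps2* has 8 named copies in the table, whose counts came to 31.3% of its own, so part of its reads may stand elsewhere.

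The lowest on the scale of exonic length were *Rpl24* at 3.41, *Rpl22l1* at 12, *Rpl7l1* at 12.7, *Rps15a* at 13.5 and *Rps20* at 23.5 CPM per kilobase. *Rps15a* and *Rps20*, both small-subunit proteins, have long annotated exonic sequence, 6270 and 4080 bases, which lowers this value. *Rps15a* had a log2 fold change of 0.94 (SE 0.38 from limma-voom) and *Rps20* of 0.63 (SE 0.28 from limma-voom).

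*Rpl24* encodes a protein that forms a bridge to the small subunit. It had 1163 counts over the 8 livers, where the next lowest gene, *Rpl22l1*, had 7860 and the median gene 53956. The annotated gene *Gm28037*, on the same strand, covers 47% of the exonic bases of *Rpl24* and had 0 counts in every liver. Reads that fall on 2 genes are often left uncounted, and the counting options are not given in the sources used here, so the low level of *Rpl24* is uncertain. Its values were 1.93, 2.91, 2.79 and 1.75 CPM in LWT and 4.11, 2.3, 4.51 and 7.8 CPM in LΔRbfox2 replicates 1 to 4, with a log2 fold change of 0.99 (SE 0.37 from limma-voom). This order of livers was held by 13 of the 78 genes.

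Paralogous pairs, in which a second gene can supply the same place in the ribosome, were then compared. *Rpl22* was at 58.9, 95.1, 65.9 and 56.4 CPM in LWT and at 118, 63.7, 117 and 171 CPM in LΔRbfox2 replicates 1 to 4. *Rpl22l1*, its paralogue, was at 15.8, 20.8, 13 and 11.4 CPM in LWT and at 36.5, 12.9, 35 and 45.6 CPM in LΔRbfox2 replicates 1 to 4. The log2 fold changes were 0.76 (SE 0.29) and 1.09 (SE 0.37, both from limma-voom). Both paralogues were high in the same 3 LΔRbfox2 livers, and per kilobase of exonic length *Rpl22* stood at 23.7 ± 6.12 and *Rpl22l1* at 7.67 ± 2.08 CPM in LWT livers (SD, n = 4 each).

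*Rps27* was at 93, 166, 115 and 69.6 CPM in LWT and at 229, 103, 246 and 369 CPM in LΔRbfox2 replicates 1 to 4. Its paralogue *Rps27l*, which p53 is known to induce, was at 66.6, 138, 80.1 and 47.1 CPM in LWT and at 166, 65, 178 and 311 CPM in LΔRbfox2 replicates 1 to 4. The log2 fold changes were 1.09 (SE 0.38) and 1.12 (SE 0.46, both from limma-voom). Neither gene of the pair stood apart from the other in the order of livers, apart from LΔRbfox2 replicate 2, which for *Rps27l* fell under LWT replicate 1.

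*Rpl36a* and *Rpl36al* encode nearly the same protein from the X chromosome and chromosome 12. *Rpl36a* was at 52.7 ± 14.9 and 79.7 ± 25.4 CPM and *Rpl36al* at 77.8 ± 22.8 and 140 ± 60.9 CPM in LWT and LΔRbfox2 livers (SD, n = 4 each), with log2 fold changes of 0.6 and 0.85. *Rpl7* was at 196 ± 60 and 304 ± 95.9 CPM, and *Rpl7l1* at 39 ± 11.5 and 49.5 ± 11.8 CPM (SD, n = 4 each), with log2 fold changes of 0.63 and 0.35. In both pairs the gene with the higher level, *Rpl36al* and *Rpl7*, had the larger log2 fold change. The standard errors of these genes, 0.25 to 0.34, hold spread between livers that both genes of a pair share. They therefore do not measure the difference within a pair. The difference within a pair was not tested.

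*Rpl13* and *Rpl13a*, unrelated proteins of the large subunit in spite of their names, had 120 ± 36.8 and 214 ± 78.5 CPM in LWT and 191 ± 61.4 and 486 ± 250 CPM in LΔRbfox2 livers (SD, n = 4 each). Their log2 fold changes were 0.67 (SE 0.3) and 1.19 (SE 0.42, both from limma-voom). *Rpl13a* was at 199, 323, 197 and 136 CPM in LWT and at 582, 180, 414 and 769 CPM in LΔRbfox2 replicates 1 to 4. Small nucleolar RNA and other genes on the same strand cover 35.4% of the exonic bases of *Rpl13a*, so its counts are uncertain.

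*Rpl13a*, *Rps18* and *Rplp0* serve as reference genes in quantitative PCR, where a constant level is assumed. *Rps18* was at 146, 262, 158 and 109 CPM in LWT and at 374, 146, 353 and 516 CPM in LΔRbfox2 replicates 1 to 4, a log2 fold change of 1.04 (SE 0.39 from limma-voom). *Rplp0*, a stalk protein whose symbol lies outside the name rule, was at 232, 398, 289 and 215 CPM in LWT and at 533, 247, 537 and 666 CPM in LΔRbfox2 replicates 1 to 4, a log2 fold change of 0.81 (SE 0.32 from limma-voom). All 3 varied between livers of a genotype as well as between genotypes, and LΔRbfox2 replicate 2 lay within the LWT range for each.

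*Rpl5* and *Rpl11* form, with 5S ribosomal RNA, the particle that binds MDM2 when ribosome assembly is disturbed, which lets p53 accumulate. *Rpl5* was at 209, 374, 240 and 158 CPM in LWT and at 536, 220, 518 and 858 CPM in LΔRbfox2 replicates 1 to 4. *Rpl11* was at 111, 214, 147 and 108 CPM in LWT and at 243, 120, 261 and 339 CPM in LΔRbfox2 replicates 1 to 4. The log2 fold changes were 1.12 (SE 0.4) and 0.73 (SE 0.33, both from limma-voom). Of 10 target genes of p53, 0 had an unadjusted *P* under 0.05 in edgeR (7.95% of all genes higher and 1.83% lower), and the median log2 fold change was 0.1. *Ccng1* and *Bax*, those of smallest *P*, had log2 fold changes of 0.55 (SE 0.25) and 0.32 (SE 0.23, both from limma-voom).

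Some ribosomal proteins have symbols outside the name rule. *Fau*, whose product is cleaved to a ubiquitin-like part and the small-subunit protein RPS30, had a log2 fold change of 0.96 (SE 0.38 from limma-voom), and *Rplp1* and *Rplp2*, the acidic stalk proteins, had 0.47 and 0.44. Of these and *Rplp0*, *Fau* and *Rplp0* had an unadjusted *P* under 0.05 with the higher mean in LΔRbfox2 livers, as did 7.95% of all genes. The adjusted *P* of both was 0.504 (edgeR). *Rps27a*, one of the 78, whose product is a fusion of ubiquitin and a small-subunit protein, had 0.93 (SE 0.36 from limma-voom).

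The table also lists 268 rows named as copies (pseudogenes) of ribosomal protein genes, of which 87 could be tested. Their counts summed to 6.79% ± 0.138 of those of the 78 genes in LWT and 6.62% ± 0.0896 in LΔRbfox2 livers (SD, n = 4 each). Of the 87, 50 had an unadjusted *P* under 0.05, all with the higher mean in LΔRbfox2 livers (7.95% of all genes), and the median log2 fold change was 0.92. *Rps19-ps1* and *Rps19-ps2* had the same count in 8 of 8 livers, 638 in all, and *Rpl35a-ps4* and *Rpl35a-ps6* differed by at most 0.53%, so reads were shared among copies. Since 56 of the 78 genes have at least 1 named copy, the level of a gene and its copies cannot be fully told apart. Copies held 56.3% as many counts as *Rpl3* itself and 43.3% as many as *Rpl36a*, and 0 counts beside *Rpl35* and *Rps27*. Over the 78 genes, the log2 fold change had a correlation of −0.05 with this percentage, of 0.12 with exonic length, −0.03 with GC content and 0.17 with mean CPM, as Pearson's r across genes that share the same livers.

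Lists of genes that act with the ribosomal proteins were then read against the same background of 7.95% of all genes higher and 1.83% lower at an unadjusted *P* under 0.05, and no gene in any list had an adjusted *P* of at most 0.05 (edgeR). Of 15 genes with mRNAs of the TOP type, most of them translation factors, 6 were at this limit, all higher in LΔRbfox2 livers. Of the 15, 11 were above 0, and the median log2 fold change was 0.41. *Eif4b*, *Eef2*, *Pabpc1* and *Hnrnpa1* lay under 0, at −0.19, −0.15, −0.1 and −0.07. *Eif3h*, a subunit of initiation factor eIF3, was at 64.8 ± 22.4 CPM in LWT and 121 ± 47.3 CPM in LΔRbfox2 livers, and *Eef1b2*, an exchange factor of elongation, at 118 ± 32.2 and 211 ± 78.5 CPM (SD, n = 4 each). Their log2 fold changes were 0.91 (SE 0.34) and 0.84 (SE 0.32, both from limma-voom). The other 4 of the 6 genes at the limit were *Rack1*, *Tpt1*, *Eif3k* and *Eif3e*.

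Of 20 other initiation factors, 3 were at the limit, all higher, with a median log2 fold change of 0.15. *Eif2s1*, the phosphorylated subunit of eIF2, had 0.71 (SE 0.26) and *Eif4a2*, an RNA helicase, 0.68 (SE 0.26, both from limma-voom). Of 49 ribosome biogenesis factors tested, 5 (10.2%) were at the limit, all higher, 31 were above 0 and the median was 0.04. *Nhp2*, of the box H/ACA particles, had 0.78 (SE 0.29), and *Emg1*, a methyltransferase of 18S ribosomal RNA, 0.69 (SE 0.29, both from limma-voom).

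Of 14 subunits and factors of RNA polymerase I, which transcribes ribosomal RNA, 3 were at the limit, all higher, 7 were above 0 and the median was 0.07. *Taf1d* had a log2 fold change of 0.84 (SE 0.31) and *Taf1b* of 0.63 (SE 0.25, both from limma-voom), and both belong to the factor that brings the polymerase to the promoter. Of 15 genes of the mTORC1 pathway, TOP mRNA control and ribosome control, 1 was at the limit and lower, 5 were above 0 and the median was −0.16. *Tsc1*, an inhibitor of mTORC1, was at 20.9, 9.38, 11.6 and 24.6 CPM in LWT and at 10.7, 12.9, 9.28 and 8.39 CPM in LΔRbfox2 replicates 1 to 4, a log2 fold change of −0.69 (SE 0.32 from limma-voom, adjusted *P* = 0.504 from edgeR). The high values of *Tsc1* were in LWT replicates 1 and 4, the 2 livers lowest in ribosomal protein mRNA, and the other 6 overlapped. This was not particular to *Tsc1*. Among LWT livers, replicates 1 and 4 were also the highest for *Mtor*, *Rptor*, *Tsc2* and *Larp1*, but not for *Rheb* or *Eif4ebp1*. *Mtor* and *Rptor* had log2 fold changes of −0.3 (SE 0.26) and −0.45 (SE 0.24, both from limma-voom). *Eif4ebp1*, a translation repressor that mTORC1 inactivates, had 0.42 (SE 0.2 from limma-voom).

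For comparison, of 77 mitochondrial ribosomal protein genes 27 (35.1%) were at the limit and 74 above 0, with a median log2 fold change of 0.54, and of 36 nuclear subunits of respiratory complex I 18 (50%) were at the limit and 34 above 0, with a median of 0.63. Cytosolic ribosomal protein genes stood at 71.8% and a median of 0.86 on the same scale. With total-count scaling the medians of mitochondrial ribosomal, complex I and cytosolic ribosomal genes were 0.26, 0.34 and 0.56. With a correction for gene length they were 0.43, 0.39 and 0.66, so the first 2 lists changed places. The differences between the lists were not tested, and the lists share the same 8 livers.

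**Figure D5:**
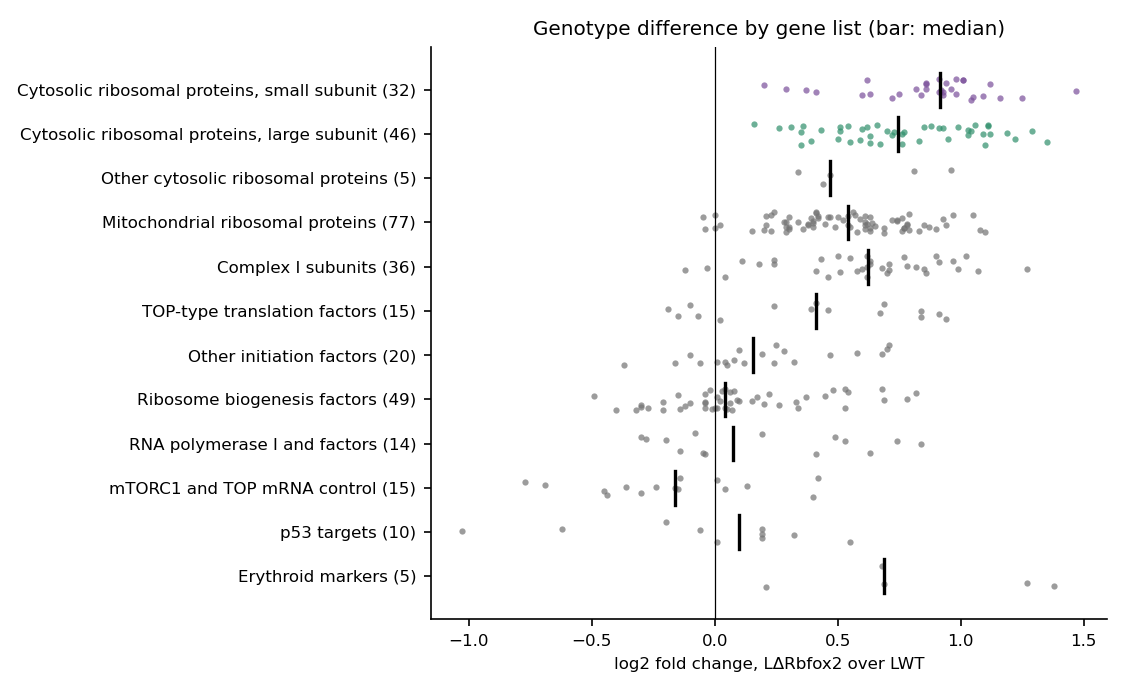
Log2 fold change, LΔRbfox2 over LWT, of each tested gene (points) in the 2 subunits and 10 other lists, with the number of genes in brackets and the median as a vertical bar; the vertical spread of the points has no meaning. The medians are 0.91 and 0.75 for the subunits, 0.54 for mitochondrial ribosomal proteins, 0.04 for ribosome biogenesis factors and −0.16 for mTORC1 and TOP mRNA control.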

How the data were processed

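The authors enriched poly(A) RNA from frozen livers, prepared NEBNext Ultra II libraries, sequenced paired-end reads, aligned them to GRCm38 with TopHat2 (2.0.11) and counted reads per gene with featureCounts, and the deposited values are whole-number counts per gene, not normalised. The submitters' processing notes list CASAVA 1.8.4. The featureCounts version and its strand and multi-mapping settings are not given in the sources used here. Every column was matched to a liver by its label, and 0 columns were left out. GENCODE M21 gave symbols, positions and lengths for 45229 of 46078 identifiers.

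The tests were run with edgeR 4.0.16 (R 4.3.3). A default filterByExpr (10 counts at minimum, 15 in total) left 13856 genes, libraries were scaled by TMM, and the genotypes were tested by glmQLFit and glmQLFTest without further terms, adjusting over all genes by Benjamini–Hochberg. Limma-voom (limma 3.58.1) gave the standard errors. DESeq2 (1.42.0), other scalings and filters, a replicate block, length and GC content corrections and each liver left out in turn were alternatives. Tests were tried on simulated data. Permutation tests were exact and two-sided. Libraries of a genotype were checked for copies, and no 2 of them agreed within sampling noise (chi-square over degrees of freedom at least 106).

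The 78 genes and the gene lists were chosen with earlier results of these data known. Genes named are the 5 highest and 5 lowest per kilobase, the 10 of smallest *P*, the largest and smallest fold changes (3 each), paralogous pairs, reference genes and *Rpl5* and *Rpl11*, the 2 genes of smallest *P* in each related list, and *Rbfox2*. Other genes (*Rack1*, *Tpt1*, *Eif3k*, *Eif3e*, *Rps27a*, *Rps29*, *Rpl3*, the copies and the remaining list members) were named after their values were seen, and 1 gene of a related list is not reported here. Replicates are separately numbered liver samples in the labels. Total counts of 37482458 to 56177588 per liver set the counting precision. Figures used Python 3.11.15, numpy 2.4.6, pandas 2.3.3 and matplotlib 3.10.9.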

Additional observations from a re-analysis of the deposited data

How the results depend on the processing

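Total-count scaling was added after seeing the data. The number of the 78 genes called was 0 in every alternative, and the number of all genes called was 0 in every alternative but DESeq2, which gave 10 and also called *Rbfox2* (log2 fold change −1.82, adjusted *P* = 0.000199 from DESeq2). The median log2 fold change of the 78 was 0.86 in the main fit. It ran from 0.56 with total-count scaling to 1.09 without LWT replicate 2 or without LΔRbfox2 replicate 2. The mean log2 CPM of the 78 had an SD of 0.53 between livers of a genotype. Since the alternatives refit the same livers, this SD does not measure how far the median moved. The number at an unadjusted *P* under 0.05 was 21 with total-count scaling (1.47% of all genes), 3 with the replicate block (1.65% of all genes), 7 with the block and both corrections (1.95% of all genes), and 7 (without LΔRbfox2 replicate 4) to 73 (without LΔRbfox2 replicate 2) when single livers were left out. Of the values of single named genes, recomputed under the alternatives other than length and GC content corrections, 556 kept direction and side of the threshold and 2 reversed, *Rpl4* at −0.08 and *Rps4x* at −0.06 with total-count scaling, where the scaling itself moves the median of all genes to −0.227. With the length correction *Rps4x*, and with length and GC content together *Rpl4* and *Rps4x*, also lay under 0. Same-numbered livers differ in genotype, so they cannot share an animal, and did not deviate together in every pair: the correlations of their deviations from the group means were 0.127, −0.613, 0.122 and −0.514 over all genes, so the block pairs livers by number alone. Depth does not limit these genes, other than perhaps *Rpl24*, at 74 to 252 counts per liver. The SE of *Rpl24* was nevertheless that of *Rpl12*, 0.37 (limma-voom), and its low count is uncertain because of the overlap with *Gm28037*. The 4 livers per genotype limit every comparison.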
